A study of Mus musculus with 172 samples.

Results

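Gm12169, BC053393, Dppa1 and Timd2 are 4 protein-coding genes that lie side by side on mouse chromosome 11, and they were followed here through the inner cell mass (ICM) of control and OCT4-null blastocysts. The members were taken by symbol from the interval between 46.5 and 46.7 Mb of GRCm38, 4 of the 49671 genes counted. The cluster was selected on its measured levels in the 5 groups described below, from earlier results of these same data, so those levels are given as a description and without a test.

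The data are Smart-seq2 libraries, full-length cDNA sequenced from 1 cell each, of 172 ICM cells from 19 mouse embryos of mixed genetic background. Embryos came from crosses between Pou5f1 heterozygotes, Pou5f1 being the gene of the transcription factor OCT4, and the outer trophectoderm (TE) had been lysed by immunosurgery. At embryonic day (E) 3.5 the groups were wild-type or heterozygous (WT/HET) embryos with a functional Pou5f1 allele (58 cells of 7 embryos, 5 WT and 2 HET) and null (MUT) embryos without one (29 cells of 4 embryos). At E4.5 they were WT/HET cells that the authors had assigned from these transcriptomes to epiblast (EPI, 37 cells) or primitive endoderm (PrE, 29 cells), both from the same 6 embryos (2 WT and 4 HET), and MUT cells (19 cells of 2 embryos). Cells of 1 embryo are not replicates, so each embryo was taken as a single sum of its cells, with EPI and PrE apart, which gave 25 sums. The 2 stages were on different plates, so stage and plate cannot be told apart, and the E4.5 MUT values rest on 2 embryos.

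TIM genes, named for T cell immunoglobulin and mucin domains, encode cell-surface receptors with an immunoglobulin-like domain on a mucin stalk, several of which bind phosphatidylserine on dying cells. Timd2 is the member of this family known in the mouse as a receptor that takes up H-ferritin, the iron-storage protein. Dppa1 takes its name, developmental pluripotency associated, from a set of genes found to be expressed like Oct4 in early embryos and pluripotent cells, and BC053393 and Gm12169 still carry the names of a cDNA clone and a gene model.

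The members cover 182.85 kb in the order Gm12169, BC053393, Dppa1, Timd2, and they are transcribed in pairs. Gm12169 (ENSMUSG00000078924) lies at chr11:46524212-46538156 on the forward strand. BC053393 (ENSMUSG00000046974) lies at chr11:46571536-46589232, also forward. Dppa1 (ENSMUSG00000064010) lies at chr11:46607772-46629261 on the reverse strand. Timd2 (ENSMUSG00000040413) lies at chr11:46668960-46707061, reverse as well. The gaps between them are 33.4, 18.5 and 39.7 kb. The span also holds 5 other annotated genes, the non-coding RNAs Gm12171 and Gm4926 and the pseudogenes Gm12170, Rpl9-ps2 and Gm12173. On the right, the nearest genes are the pseudogene Gm12174, 20.8 kb away, and Havcr1, 28.02 kb away, another TIM gene known as a kidney injury marker and a receptor of hepatitis A virus. On the left, they are Havcr2, a TIM gene of T cells 43.0 kb away, and the pseudogene Gm12168, 72.9 kb away.

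The annotated transcripts show that the members are relatives of each other and of Havcr1, which bears on how far their reads can be told apart. BC053393 and Gm12169 aligned over 538 bases with 466 identical (86.6%), and each aligned with Havcr1 at about the same identity, 74.9% over 537 bases and 75.4% over 541 bases. A stretch of 120 coding bases, positions 269 to 388 of all 3 coding sequences and within the third exon of each, shows this kinship without a gap. The stretch was chosen as the gap-free window of this length with the most bases shared by all 3. It is printed 5′ to 3′ from the GENCODE M21 transcripts of GRCm38, with capitals for the 85 bases that all 3 share. BC053393 and Gm12169 were identical at 116 of the 120, a higher share than the 86.6% over their whole alignment. The stretches lie on the forward strand at chr11:46577369-46577488 (BC053393), chr11:46528627-46528746 (Gm12169) and chr11:46752523-46752642 (Havcr1).
BC053393: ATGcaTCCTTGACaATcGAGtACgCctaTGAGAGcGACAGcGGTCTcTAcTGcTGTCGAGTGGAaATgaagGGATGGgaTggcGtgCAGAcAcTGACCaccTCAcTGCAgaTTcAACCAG
Gm12169: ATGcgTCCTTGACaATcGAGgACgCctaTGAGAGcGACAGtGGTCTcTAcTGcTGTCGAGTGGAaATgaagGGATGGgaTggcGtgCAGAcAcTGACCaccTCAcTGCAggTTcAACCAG
Havcr1: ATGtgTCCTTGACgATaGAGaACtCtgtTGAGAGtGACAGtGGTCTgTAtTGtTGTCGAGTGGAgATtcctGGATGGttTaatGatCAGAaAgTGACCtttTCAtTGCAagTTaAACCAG

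Other parts of the cluster resembled different neighbours. The Timd2 transcript aligned with Havcr1 over 1629 bases (82.8% identical) and with Gm4926 over 1261 bases (89.5%). Dppa1 matched Gm12171 over 1133 bases (93.7%) and the later part of Gm12169 over 457 bases (79.6%). Even so, few reads could be shared. Of the 75-base words in the annotated transcripts, 0 of 991 in Gm12169 and 0 of 1946 in BC053393 occurred in another gene. For Dppa1 it was 43 of 1537, all in Gm12171, and for Timd2 41 of 3470, all in Havcr1. No exon base of a member overlapped an exon of another gene on either strand.

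The bases in front of the start sites are shown because those of BC053393 and Dppa1, whose transcripts aligned over no more than 246 bases, resemble each other. The 300-base RefSeq promoter windows (GRCm38.p6, 250 bases before the start and 50 after) aligned over 151 bases with 122 identical (80.8%), at positions 120 to 285 of the BC053393 window and 1 to 152 of the Dppa1 window. The 250 bases before each start are printed 5′ to 3′ along the gene, with capitals for bases identical in that alignment, at chr11:46571263-46571512 on the forward strand for BC053393 and chr11:46629275-46629524 on the reverse strand for Dppa1.
BC053393: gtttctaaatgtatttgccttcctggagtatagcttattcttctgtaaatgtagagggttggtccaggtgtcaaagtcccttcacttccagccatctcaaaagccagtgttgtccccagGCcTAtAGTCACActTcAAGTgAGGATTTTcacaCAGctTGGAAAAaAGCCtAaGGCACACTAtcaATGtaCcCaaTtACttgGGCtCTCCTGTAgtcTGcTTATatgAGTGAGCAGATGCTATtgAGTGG
Dppa1: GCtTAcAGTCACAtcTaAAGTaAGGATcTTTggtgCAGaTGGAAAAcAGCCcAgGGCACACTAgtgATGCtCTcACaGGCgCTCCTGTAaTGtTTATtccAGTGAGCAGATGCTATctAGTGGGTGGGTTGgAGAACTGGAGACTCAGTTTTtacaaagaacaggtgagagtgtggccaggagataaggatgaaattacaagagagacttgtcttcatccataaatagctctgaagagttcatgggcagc

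The Dppa1 window also aligned with 1 of the 3 Havcr1 windows, over 154 bases with 122 identical (79.2%), whereas both Timd2 windows aligned with those of BC053393 and Dppa1 over at most 25 bases. Among 7 motifs searched on both strands, the GATA motif, searched as AGATAA, matched once in Dppa1, 69 bases before the start, and once in that Havcr1 window, 75 bases before it, and 11.2% of the 32851 promoter windows hold it. No other motif matched a window of BC053393, Dppa1, Timd2 or Havcr1, and Gm12169 has no window in the table. Of these others, the octamer that OCT4 and its relatives bind, ATGCAAAT, is found in 1.74% of all windows and the ESRRB motif TCAAGGTCA in 0.423% of them. The TEAD motif GGAATG is more common, being found in 14.7% of all promoter windows. The KLF motif GGGNGTG, in which N is any base, occurs in 29.2% of promoter windows in the table. For the E-box with the letters CACGTG, the share of promoter windows with at least 1 match is 7.15%. The TATA motif was searched as TATAAA, which 13.6% of the windows hold.

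Median cell totals by group were 1318327 to 1772045 counted read pairs. Single cells held 363819 to 4644070 pairs and sums 2736296 to 17453036, and the median share of pairs that aligned more than once, which the counts leave out, was 38.8% to 41.1% in the E3.5 groups and 19.7% to 24.9% at E4.5. Levels below are counts per 1000000 counted (CPM) after TMM scaling, edgeR's correction for composition, and log2 fold changes with standard errors (SE) come from edgeR's quasi-likelihood fits. Pou5f1 itself averaged 298 ± 98.6 CPM (SD, n = 7) in E3.5 WT/HET sums and 4.31 ± 1.40 (n = 4) in E3.5 MUT sums, and had 0 counts in the 2 E4.5 MUT sums, which match their labels. EPI markers summed to 2021 to 3603 CPM in EPI sums and PrE markers to 618 to 1416 CPM in PrE sums. TE and trophoblast markers (8 genes, Cdx2 and Gata3 among them) summed to 3389 and 4644 CPM in the E4.5 MUT sums, with all 8 at 1 CPM or more, against 582 to 1027 in E3.5 MUT, 117 to 710 in E3.5 WT/HET, 80.8 to 473 in PrE and 16.2 to 89.9 in EPI sums. The giant cell genes Prl3d1 and Prl2c2 were at 0 in every sum.

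Timd2 was the most abundant member in E3.5 control ICM, was higher in every E3.5 MUT embryo, and was below 1 CPM in EPI while PrE from the same embryos had it. The 7 WT/HET sums held 1133, 304, 702, 665, 811, 728 and 1474 CPM. The 4 MUT sums held 7349, 2203, 3885 and 2857 CPM. The groups did not overlap, and the mean was 4073 ± 2291 against 831 ± 374 CPM, 4.90-fold higher (log2 fold change 2.32, SE 0.38). In a sum, fewer cells with an RNA and less of it in each cell cannot be told apart, so counts per cell follow further on.

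At E4.5, Timd2 separated the lineages of 1 embryo. The 6 PrE sums held 555, 298, 204, 510, 327 and 752 CPM (441 ± 202). The 6 EPI sums held 0, 0.133, 0, 0.0598, 0 and 0.164 CPM, which is 4 read pairs in 37 cells against 21714 in 29 PrE cells. The ratio of the counting shares was 7171 (95% exact interval 2800.4 to 26322). Read pairs carry no molecular tag, so this and the later intervals cover counting error only. Against E3.5 WT/HET ICM the EPI share was lower by a ratio of 13328 (5205 to 48919), whereas the PrE sums overlapped those of E3.5 controls (log2 fold change -0.92, SE 0.34). The E4.5 MUT sums held 715 and 1303 CPM, of which the first lay within the PrE range (1.20 higher on the log2 scale, SE 0.43). They were below every E3.5 MUT sum, 4.04-fold on average (log2 fold change -2.08, SE 0.56).

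**Figure D1:**
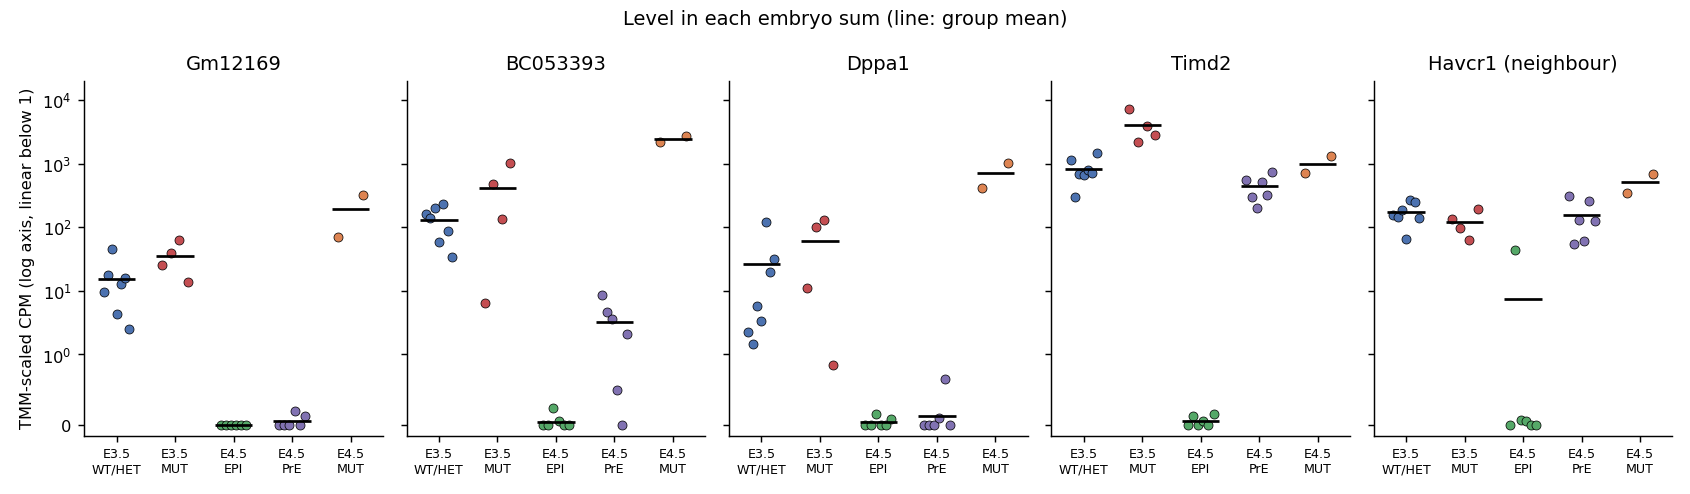
TMM-scaled CPM (log axis, linear below 1) of each member and of the neighbour Havcr1 in the 25 embryo sums, by group; each point is 1 sum and each line the group mean. All 4 members lie below 1 CPM in EPI, Timd2 alone stays at 204 CPM or more in every PrE sum, and BC053393, Dppa1 and Gm12169 are highest in the 2 E4.5 MUT sums.

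BC053393 ran at an intermediate level in control ICM, was nearly absent from both E4.5 control lineages, and reached its highest values in E4.5 MUT cells. The 7 E3.5 WT/HET sums held 161, 139, 202, 59.8, 235, 88.6 and 34.5 CPM (131 ± 74.3). E3.5 MUT sums spread from 6.51 through 136 and 474 to 1020 CPM, on both sides of the controls, and single cells weighed heavily there, since 1 cell gave all counts of the lowest sum and 85.6% of those of the highest. The fitted difference was 1.65 on the log2 scale (SE 0.81), but it was 0.64 without MUT embryo 19 and -0.08 when every cell was given equal weight.

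PrE sums held 8.57, 4.65, 3.56, 0.502, 0 and 2.11 CPM of BC053393, all below every E3.5 WT/HET sum (log2 fold change -5.30, SE 0.75). EPI sums held 0 to 0.239 CPM, 4 read pairs in all, a ratio of 2315 below E3.5 controls (904 to 8499) and of 59.1 below PrE (22.7 to 219). The E4.5 MUT sums held 2166 and 2778 CPM, with the gene in all 11 and all 8 cells and no cell giving more than 21.6% of the counts. They exceeded PrE by 9.53 on the log2 scale (SE 0.88) and E3.5 MUT by 6.04-fold (log2 fold change 2.51, SE 1.27), without overlap in either case. The second value was 3.56 without E3.5 MUT embryo 19 and 5.09 with cells weighted equally. Against EPI the ratio of counting shares was 40635 (15869.9 to 149142).

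Dppa1 was scarce and uneven in E3.5 ICM and abundant in E4.5 MUT cells. The WT/HET sums held 2.28, 1.45, 5.86, 3.31, 119, 19.6 and 31.9 CPM, and the MUT sums 10.99, 99.8, 129 and 0.844 CPM, which overlapped (log2 fold change 1.21, SE 1.20). Leaving out WT/HET embryo 15 gave 2.48, and leaving out MUT embryo 17 gave 0.49. In the MUT sums at 99.8 and 129 CPM, 1 cell gave 66.9% and 69.9% of the counts. EPI sums reached 0.159 CPM and PrE sums 0.651 CPM at most, with 3 read pairs in each lineage, by ratios of 710 (243 to 3447) and 538 (184 to 2609) below E3.5 controls. The E4.5 MUT sums held 414 and 1032 CPM, 12-fold above E3.5 MUT (log2 fold change 3.53, SE 1.33), with no overlap, or by 2.75 on the log2 scale without E4.5 MUT embryo 8 and 4.24 without E3.5 MUT embryo 17. Their counting share was 15058 times that of EPI (5152 to 73026) and 11399 times that of PrE (3899.99 to 55279.8).

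Gm12169 was also highest in E4.5 MUT cells and at or near 0 in EPI and PrE, which could not be ordered. The WT/HET sums held 9.61, 17.7, 46.4, 4.33, 12.7, 16.03 and 2.56 CPM, and the MUT sums 25.3, 39.9, 62.4 and 13.8 CPM, with overlap (log2 fold change 1.20, SE 0.64). EPI cells held 0 read pairs, at least 349-fold lower than E3.5 controls with 3 counts in the whole group taken as the floor (the exact 95% interval of the ratio of shares gives a lower limit of 264), and PrE cells 3 read pairs, a ratio of 246 below them (84.1 to 1196). The E4.5 MUT sums held 71.3 and 321 CPM, 5.56-fold above E3.5 MUT (log2 fold change 2.41, SE 0.68) and at least 4390.5-fold above EPI by the same floor (lower limit of the exact interval 3205). In these sums 1 cell gave 49.5% and 50.8% of the counts. The log2 fold change over E3.5 MUT was 0.98 without E4.5 MUT embryo 8, 3.11 without embryo 3 and 1.20 with cells weighted equally. TE markers were also highest in the E4.5 MUT sums and higher in every other group than in EPI, and their part in these differences was not tested; within E4.5 MUT cells their summed level correlated with Dppa1 (Pearson r = 0.52, n = 19 cells) and hardly with Gm12169 (0.07), BC053393 (-0.02) or Timd2 (0.16). In other groups it correlated with Gm12169 (0.46) and Dppa1 (0.43) over 29 E3.5 MUT cells, with Dppa1 over 58 E3.5 WT/HET cells (0.48) and with BC053393 over 29 PrE cells (0.45). The cells of a group share embryos and plate, so these r values are a description. Cells with all 4 members had a higher median TE marker level than the others in E4.5 MUT (3854 against 1455 CPM), E3.5 MUT (655 against 564) and E3.5 WT/HET (291 against 212). In E4.5 MUT they were 3 of 11 cells of embryo 3 and 7 of 8 of embryo 8. This difference therefore cannot be told apart from one between the embryos, and the medians of pooled cells are a description.

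The order of abundance within the cluster changed between the stages. Per length, as FPKM, the CPM divided by the kilobases of exon, the E3.5 WT/HET means were 239 for Timd2, 65.1 for BC053393, 16.7 for Dppa1 and 14.7 for Gm12169, but the mean of Dppa1 rests on embryo 15 (75.7 FPKM), and Gm12169 was the higher of the last pair in 5 of the 7 embryos. E3.5 MUT means were 1173, 202, 38.3 and 33.2 FPKM, and the last pair could not be ordered there either, as Gm12169 was higher in 2 of the 4 embryos. In E4.5 MUT cells BC053393 led, with 1072 and 1375 FPKM in the 2 sums, above Dppa1 (263 and 655), Timd2 (206 and 375) and Gm12169 (67.0 and 302). The order was the same in both embryos, although the ranges of the last 3 genes overlapped.

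As a share of the read pairs of all 4 members, which does not correct for length, Timd2 made up 65.8% to 95.5% in E3.5 WT/HET sums (median 85.4%) and 73.4% to 99.4% in E3.5 MUT sums (median 85.2%). In PrE it made up 98.3% to 99.8%. In the E4.5 MUT sums it made up 21.2% and 23.97%, with BC053393 at 64.3% and 51.1%, Dppa1 at 12.3% and 18.99% and Gm12169 at 2.12% and 5.91%. The summed level of the cluster nevertheless stayed high, at 3367 and 5434 CPM in E4.5 MUT against 2816 to 7392 CPM in E3.5 MUT, 463 to 1543 in E3.5 WT/HET, 208 to 755 in PrE and 0 to 0.398 in EPI sums.

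**Figure D2:**
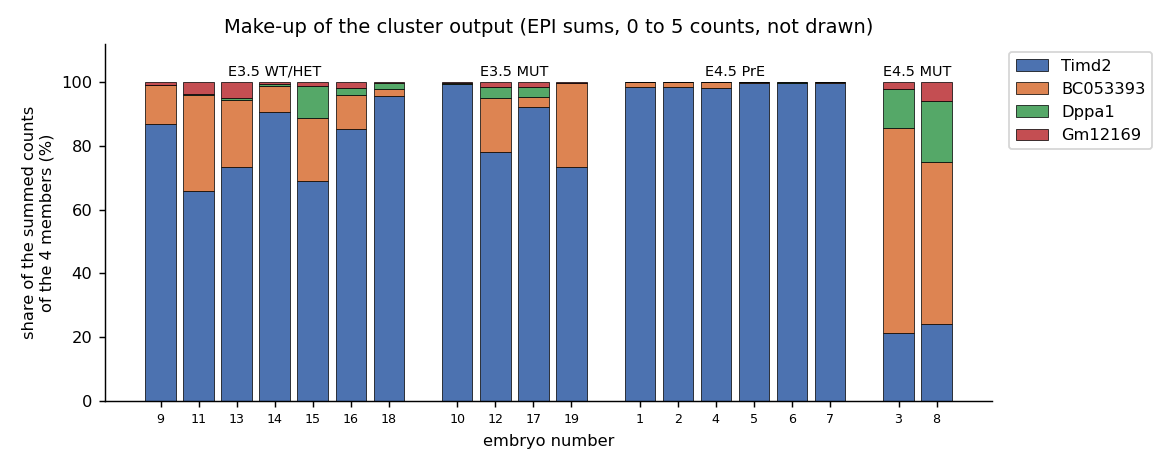
Share of the summed read pairs of the 4 members (percent) that each member takes in the E3.5, PrE and E4.5 MUT sums, 1 bar per embryo, EPI not drawn because its sums hold 0 to 5 pairs. Timd2 takes 65.8% or more of every bar except the 2 of E4.5 MUT, where BC053393 takes 64.3% and 51.1%.

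Single cells showed all 4 members missing together in most EPI cells, and 3 of them missing beside Timd2 in most PrE cells. Of 37 EPI cells, 29 had no read pair of any member, 6 had 1 member and 2 had 2, always at 1 or 2 pairs per gene, and no EPI cell reached 5 counts of any. For Gm12169, 0 of 37 cells allows a share of cells with a read pair of up to 9.49% (95% exact binomial interval), which covers counting error only and not the spread between the 6 embryos. All 29 PrE cells had Timd2 at 5 counts or more, and 22 of them had no other member. BC053393 was found in 6 PrE cells, each at 5 counts or more, while Gm12169 and Dppa1 were found in 2 cells each at no more than 2 counts. No cell of any group other than EPI had another member without Timd2.

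In the other 3 groups, the cells differed in how many members they had. In E3.5 WT/HET ICM 18 of 58 cells (31.03%) had all 4 members, 27 had 3, 11 had 2 and 2 had Timd2 alone. In E3.5 MUT ICM 13 of 29 (44.8%) had all 4, 12 had 3, 1 had 2 and 3 had Timd2 alone. In E4.5 MUT 10 of 19 (52.6%) had all 4, 7 had 3 and 2 had BC053393 and Timd2. The embryos differed, with all 4 in 3 of 11 cells (27.3%) of E4.5 MUT embryo 3 and 7 of 8 (87.5%) of embryo 8, in 20% to 50% of the cells of an E3.5 MUT embryo and in 0% to 66.7% of those of an E3.5 WT/HET embryo. These shares depend on what counts as detected: at 10 CPM or more, all 4 were present in 5 of 58 (8.62%), 8 of 29 (27.6%) and 10 of 19 cells (52.6%), the last again as 3 of 11 and 7 of 8. They also go with depth, since the median total of cells with all 4 was 1626016 in E3.5 WT/HET, 1379848 in E3.5 MUT and 1646859 in E4.5 MUT, against 1286896, 1274390 and 1519489 in the other cells of those groups. With every cell thinned to 363819 counts, all 4 were found in 13 of 58 (22.4%), 11 of 29 (37.9%) and 10 of 19 cells (52.6%).

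**Figure D3:**
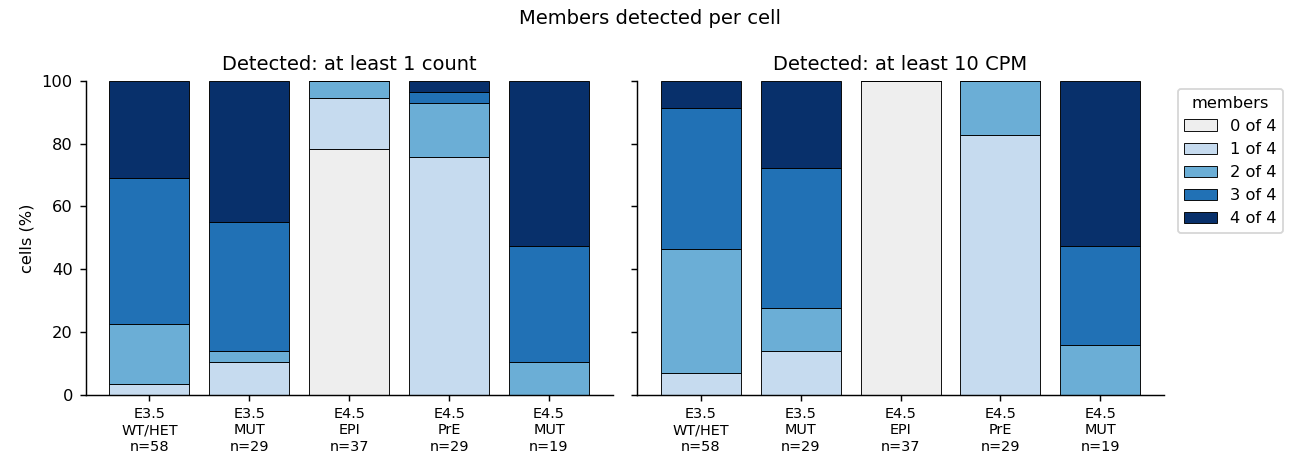
Share of cells (percent) with 0 to 4 members detected, by group, with detection at 1 count (left) or 10 CPM (right). EPI is mostly cells with none, PrE mostly cells with 1, and E4.5 MUT has all 4 in 10 of 19 cells under both rules, 3 of them from embryo 3 and 7 from embryo 8.

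In the E3.5 groups the member that cells most often lacked was Dppa1. It was found in 26 of 58 WT/HET cells (44.8%), from 10% to 77.8% of the cells of an embryo, and in 16 of 29 MUT cells (55.2%), from 50% to 60% by embryo. In E4.5 MUT it was found in 14 of 19 cells (73.7%), 7 of 11 in embryo 3 and 7 of 8 in embryo 8, and Gm12169 was lacking in 1 cell more. Gm12169 was found in 39 (67.2%), 24 (82.8%) and 13 (68.4%) of these cells and BC053393 in 54 (93.1%), 24 (82.8%) and 19 (100%), and Timd2 in every one. Cells of 1 embryo are not replicates, so these shares of pooled cells are a description and were not compared between groups. Median levels per cell spanned a wider range: Timd2 stood at 600 CPM in E3.5 WT/HET, 2916 in E3.5 MUT, 347 in PrE and 695 in E4.5 MUT cells, and BC053393 at 85.9, 113, 0 and 2226 CPM. In the same order, Gm12169 stood at 5.03, 39.2, 0 and 49.3 CPM and Dppa1 at 0, 1.87, 0 and 533 CPM. Between the MUT stages the cell medians of Gm12169 thus lay much closer than the means of its sums, which differed 5.56-fold.

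Whether cells rich in 1 member were rich in the others differed between pairs and groups. Over the 19 E4.5 MUT cells every pair correlated positively on the log2(CPM + 1) scale, from Gm12169 with Timd2 (Pearson r = 0.71) and Gm12169 with BC053393 (0.59) to BC053393 with Timd2 (0.40). Over deviations from each embryo's mean they stayed positive, from 0.62 (Gm12169 with Timd2) to 0.31 (Gm12169 with Dppa1). Over the 29 E3.5 MUT cells Gm12169 went with Dppa1 (0.54) and BC053393 (0.45), while BC053393 and Timd2 ran opposite (-0.48). Within embryos the opposition was not seen, since over deviations from each embryo's mean r was 0.07. Every pair was positive on that measure in E3.5 MUT, up to 0.55 (Gm12169 with Dppa1). Dppa1 with Timd2 was 0.53 there, against 0.27 over the pooled cells and 0.34 within E4.5 MUT embryos. Over the 58 E3.5 WT/HET cells no pair passed 0.34 (Gm12169 with BC053393), which was 0.13 over deviations from the embryo means. Cells of a group share embryos, plate and, for pairs with 1 member undetected, depth, so these values carry no test.

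**Figure D4:**
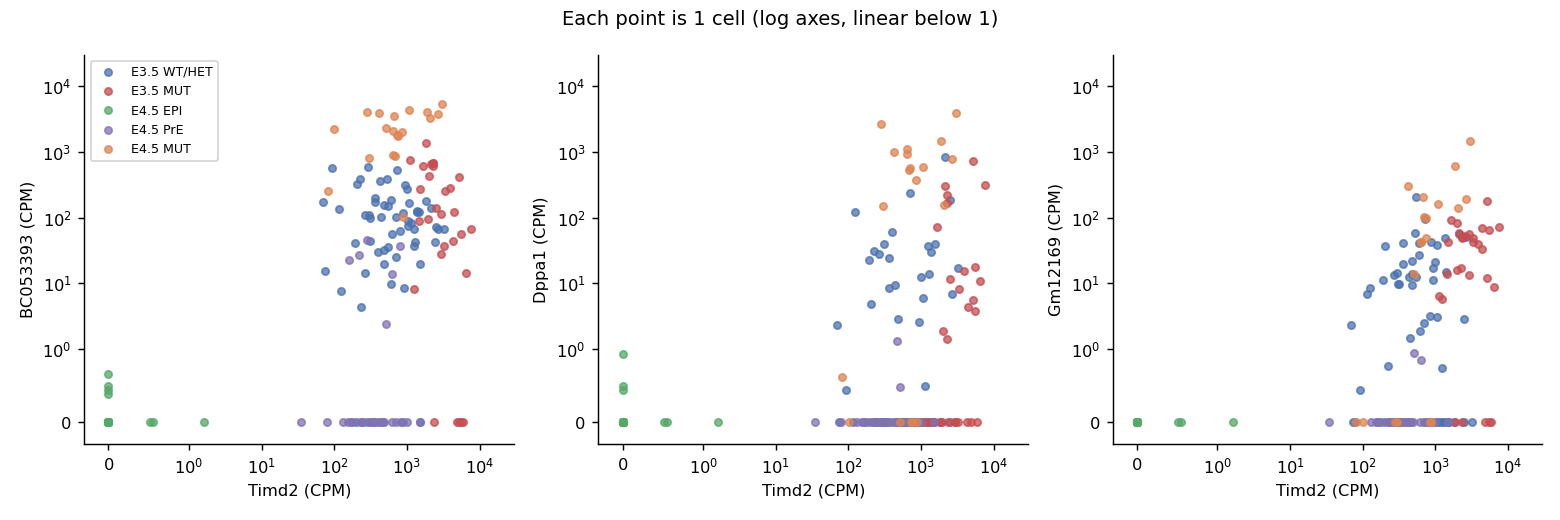
Timd2 (CPM, horizontal) against BC053393, Dppa1 and Gm12169 (CPM, vertical) in single cells, both axes logarithmic and linear below 1, coloured by group. EPI cells sit at the origin, most PrE cells lie along the horizontal axis at 0 of the other gene, and E4.5 MUT cells lie highest for BC053393 at Timd2 levels like those of E3.5 WT/HET cells.

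The comparison of HET with WT embryos had no part in choosing the cluster, so the members were tested in it with edgeR's quasi-likelihood test and Benjamini-Hochberg adjustment over all genes. At E3.5, with 2 HET and 5 WT embryos, 0 of 13351 genes passed an adjusted p of 0.05 (0%, with 1056 at an unadjusted p under 0.05, 178 by DESeq2 and 3 by limma on equally weighted cells). Timd2 stood at 811 and 728 CPM in the HET sums and 856 ± 454 (SD, n = 5) in the WT sums (log2 fold change -0.14, SE 0.48, adjusted p = 0.975). BC053393 (0.45, SE 0.62, adjusted p = 0.921) and Gm12169 (-0.15, SE 0.96, adjusted p = 0.990) also stayed within the spread of the embryos. Dppa1 stood at 119 and 19.6 CPM in the HET sums and 8.96 ± 12.9 in the WT sums, with overlap (log2 fold change 2.97, SE 1.08, unadjusted p = 0.0225 and adjusted p = 0.606 by edgeR, between 0.209 and 0.854 under the alternatives). Its log2 fold change was 1.15 without HET embryo 15, 3.75 without HET embryo 16 and 4.45 without WT embryo 18.

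At E4.5 no difference between HET and WT passed for the members that could be tested, Timd2 and BC053393 in PrE. Gm12169 and Dppa1 had too few counts in PrE to be tested. In PrE, with 4 HET and 2 WT embryos, 2 of 10919 genes passed (0.0183%), neither of them a member. Timd2 averaged 452 ± 249 CPM (n = 4) in HET and stood at 327 and 510 in the WT sums (log2 fold change 0.10, SE 0.51, edgeR adjusted p = 0.996, from 0.736 to 0.9998 under the alternatives). BC053393 was at 2.11 to 8.57 CPM in HET and 0 and 0.502 CPM in WT sums (edgeR adjusted p = 0.702), 174 against 5 read pairs. In EPI 0 of 11669 genes passed (0%, with 441 at an unadjusted p under 0.05, 61 by DESeq2 and 2 by limma), and no member had enough counts to be tested.

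The genes around the cluster were tested in every contrast to see whether the changes stopped at its ends. Within 1 Mb of the span lie 38 other genes, of which 8 to 12 had enough counts. In E3.5 MUT against WT/HET, where 746 of 12075 genes passed (6.18%, edgeR, adjusted p at 0.05), 0 of 8 neighbours did, and Havcr1 stood at 123 ± 55.2 against 172 ± 68.3 CPM (log2 fold change -0.47, SE 0.37, adjusted p = 0.516). The nearest TIM gene was not called higher in MUT ICM. Med7, a Mediator subunit gene left of the cluster, stood at 26.3 ± 2.94 FPKM in E3.5 MUT and 31.9 ± 6.40 FPKM in WT/HET sums.

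Havcr1 followed Timd2 through the control lineages at E4.5, with 1 exception. PrE sums held 55.6 to 315 CPM (158 ± 107), near the E3.5 WT/HET level (log2 fold change -0.13, SE 0.41, adjusted p = 0.854). EPI sums held 0 to 0.0796 CPM except in embryo 2, where 1 of 5 cells gave all 331 read pairs of a sum at 44.1 CPM. That cell was EPI by its markers (3442 CPM of EPI markers against an EPI median of 3335, 2.19 CPM of PrE and 1.09 CPM of TE markers) and had 1 read pair of Timd2. EPI was below E3.5 WT/HET (log2 fold change -4.56, SE 1.41, edgeR adjusted p = 0.0223), in a contrast in which 3557 of 11142 genes passed (31.9%). Between EPI and PrE, where 958 of 9762 genes passed in the fit without pairing (9.81%), 0 of 8 neighbours did. The difference in Havcr1 there was -4.43 (SE 1.58, adjusted p = 0.103), and it passed with the embryo as a block (-9.72, adjusted p = 0.0174) and without embryo 2 (-11.92, adjusted p = 6.45e-06). Without embryo 2, EPI held 1 read pair of Havcr1 in embryo 4, 1 in embryo 5 and 0 elsewhere, so the size of the last value is poorly determined.

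**Figure D5:**
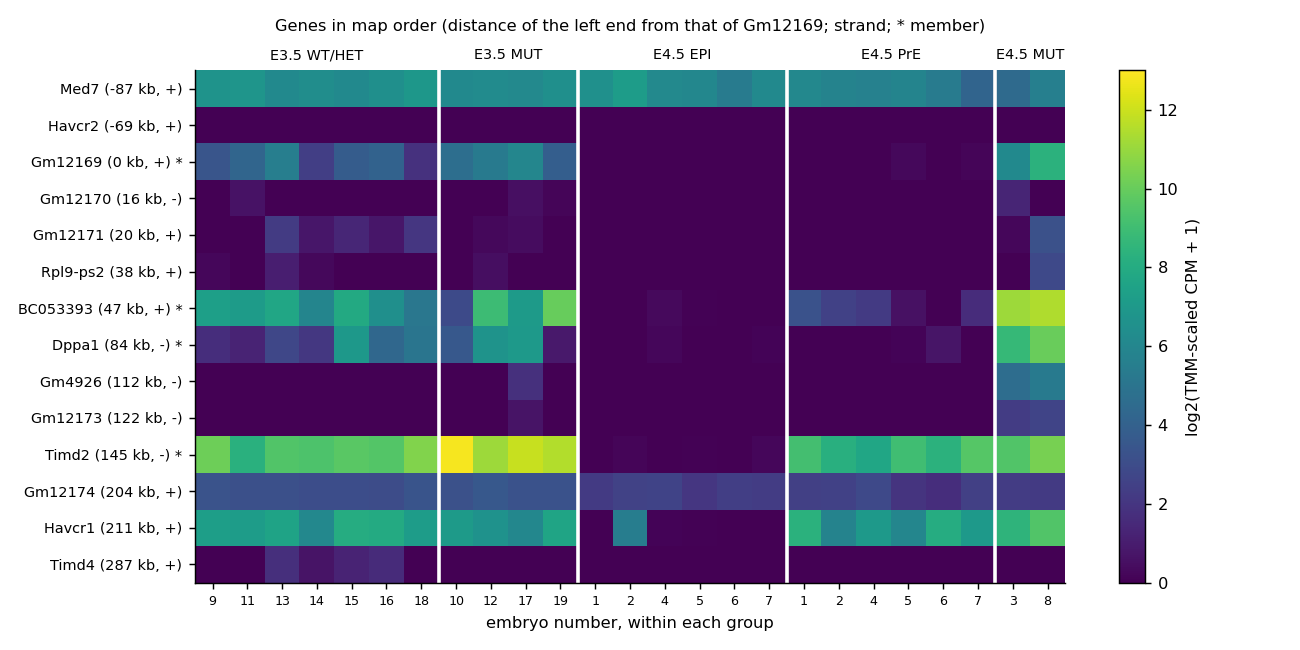
Level (colour, log2 of TMM-scaled CPM plus 1) of 14 genes in map order, with the distance from the left end of Gm12169 and the strand, in the 25 embryo sums; stars mark members. The EPI columns are dark from Gm12169 to Timd2 while Med7 on the left and Gm12174 on the right keep signal in every sum, and Havcr1 is dark in EPI except in embryo 2.

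The other neighbours called between the stages went in both directions. In EPI against E3.5 WT/HET, 3 of 8 neighbours passed (37.5% against the 31.9% of all genes given above), Havcr1 as described, and Clint1 (0.74, edgeR adjusted p = 0.0274, or 0.0585 without E3.5 WT/HET embryo 14) and Thg1l (1.16, adjusted p = 0.000883), both higher in EPI. In PrE against E3.5 WT/HET, where 3420 of 10800 genes passed (31.7%), 3 of 8 did: Clint1 (1.65, edgeR adjusted p = 0.000529) and Gm12166 (1.51, adjusted p = 0.0330, or 0.0683 without E3.5 WT/HET embryo 11) were higher in PrE and Med7 (-0.94, adjusted p = 0.0148) lower. The E3.5 WT/HET embryos are the reference of both contrasts, so the 2 sets of values are not independent.

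Havcr1 and Gm4926, the genes closest to Timd2 in sequence, were at their highest levels in the E4.5 MUT sums. Havcr1 held 351 and 699 CPM, above every sum of the other groups. The difference from E3.5 MUT passed the test (log2 fold change 2.02, SE 0.47, edgeR adjusted p = 0.0473), in a contrast where 860 of 12714 genes passed (6.76%), and was the only call among 10 neighbours, but leaving out any 1 of the 6 embryos took its adjusted p to between 0.0563 and 0.196. Against EPI (6.15, SE 2.07, adjusted p = 0.126) and PrE (1.74, SE 0.60, adjusted p = 0.160, from 0.0474 to 0.607 under the alternatives) it did not pass, although without EPI embryo 2 the first was 13.55 (adjusted p = 2.4e-05). The size of 13.55 is poorly determined, as EPI then held 1 read pair in embryo 4 and 1 in embryo 5.

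Gm4926, the non-coding RNA between Dppa1 and Timd2, was read in E4.5 MUT sums at 23.99 and 38.5 CPM, in 2 of 11 and 4 of 8 cells, with 1 cell giving 99.8% of the first sum's counts. It was at 0 in EPI, PrE and E3.5 WT/HET sums and at 2.48 CPM in 1 of 4 E3.5 MUT sums. It was the 1 neighbour of 12 that edgeR called against EPI (637 of 12953 genes passed, 4.92%) and of 10 called against PrE (466 of 12246, 3.81%). It passed the filter there only through the E4.5 MUT sums, so these calls are a description. Both were lost without E4.5 MUT embryo 8. Gm12173, a pseudogene next to Gm4926, was at 3.96 and 5.31 CPM in E4.5 MUT and at 0 in all EPI and PrE sums. Gm12173 too passed the filter there only through the E4.5 MUT sums, and it was not called. Havcr2 had no read pair in any cell, and Timd4, the TIM gene 103.7 kb to the right, had 78, all in E3.5 WT/HET cells.

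The other Dppa genes, which lie elsewhere in the genome, were set beside Dppa1. They were listed with earlier results of these data known, so their calls are a description. In E3.5 MUT against WT/HET 0 of 4 passed edgeR's test (median log2 fold change -0.27, against -0.02 over all genes). From E3.5 WT/HET to EPI, Dppa2 (-2.55, adjusted p = 4.4e-06) and Dppa3 (-2.47, adjusted p = 9.65e-07) were lower and Dppa5a was higher (1.33, adjusted p = 1.18e-07), so that EPI kept 269, 263 and 5659 CPM of them where Dppa1 stood at no more than 0.159. To PrE, Dppa2 (-4.13), Dppa3 (-3.66) and Dppa4 (-0.89, adjusted p = 0.0243, or 0.0521 without PrE embryo 7) were lower. Dppa2, Dppa4 and Dppa5a were also higher in EPI than in PrE, by 1.55, 1.35 and 0.99 on the log2 scale, of which the Dppa4 call was lost without embryo 2 (adjusted p = 0.0695).

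In E4.5 MUT cells, Dppa2 was higher than in PrE (2.78, edgeR adjusted p = 0.00606). Dppa5a was higher than in EPI (0.61, adjusted p = 0.0471) and PrE (1.64, adjusted p = 0.00711), but without E4.5 MUT embryo 3 these became 0.284 and 0.0687. Against E3.5 MUT, Dppa2 (-2.31) and Dppa3 (-1.91) were lower and Dppa5a was higher (2.41). These calls too rested on both E4.5 MUT embryos, with an adjusted p of 0.121 for Dppa2 and 0.0641 for Dppa5a without embryo 3, and of 0.0963 for Dppa3 without embryo 8. Of 6 TIM family names other than Timd2, 3 have a gene record (Havcr1, Havcr2 and Timd4), and Havcr1 is described above.

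Since Timd2 is known for ferritin uptake, 20 genes of iron handling were set beside it. This list was chosen with earlier results of these data known. Its shares of calls are therefore a description and do not measure an excess over all genes. In E3.5 MUT against WT/HET 15 were tested and 5 passed, where 6.18% of all genes did. Slc11a2, an iron importer (1.30, edgeR adjusted p = 0.00551), Ncoa4, which delivers ferritin to lysosomes (1.27, adjusted p = 0.0149), and Steap3, an endosomal iron reductase (1.68, adjusted p = 0.0239, or 0.0729 without MUT embryo 10), were higher in MUT. Aco1 (-1.47) and Scara5, both named after their values were seen, were lower, though not called without MUT embryo 17 (adjusted p = 0.0754 and 0.0793). The ferritin chains Fth1 and Ftl1 were not among them, and the median log2 fold change over the list was 0.21. Between EPI and PrE, 3 of 14 passed, where 9.81% of all genes did. Fth1, the heavy chain that Timd2 binds, was lower in EPI, where Timd2 was nearly absent (482 against 1225 CPM, -1.34, adjusted p = 0.000505), and Tfrc, the transferrin receptor (3.51, adjusted p = 0.0339), and Steap3 (6.18, adjusted p = 0.0190) were higher in EPI, neither of which passed without embryo 7 (adjusted p = 0.0870 and 0.0665). With the embryo as a block, which pairs EPI and PrE, Tfrc did not pass (adjusted p = 0.0915) and Pcbp1 did (0.0427; -0.54 without the block), and of the Dppa genes Dppa3 passed as well (0.0477).

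In the stage contrasts 9 of 14 iron genes passed from E3.5 WT/HET to EPI (3 higher, 6 lower; Pcbp1 -1.72, Ftl1 1.47, Fth1 -1.10) and 7 of 14 to PrE (3 higher, 4 lower; Pcbp1 -1.20, Ftl1 1.08, Steap3 -6.69), beside medians of -0.82 and -0.33 over the list and -0.06 and -0.10 over all genes, of which 31.9% and 31.7% passed. In E4.5 MUT cells 2 of 14 passed against EPI, Steap3 (2.52) and Pcbp1 (1.04), and 2 of 15 against PrE, Ftl1 (1.20) and Steap3 (8.75), all higher, and 1 of 14 against E3.5 MUT, Ncoa4, was lower (-2.02). Of all genes, 4.92%, 3.81% and 6.76% passed in these contrasts. Each of these 5 calls was lost without 1 of the 2 E4.5 MUT embryos, with an adjusted p of 0.112 to 0.254. Between HET and WT, 0 of 4 Dppa genes and 0 of 14 or 15 iron genes passed edgeR's test in any of the 3 contrasts.

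The genes whose levels most resembled each member over the 25 sums differed between Timd2 and the rest. For Timd2 they were Eva1a (Pearson r = 0.98), Lamp1 (0.95), B4galt1 (0.95), Msl3 (0.94) and Rab3il1 (0.93), out of 6005 genes with a mean of at least 20 CPM. Eva1a stood at 79.3 ± 17.9 CPM in E3.5 WT/HET, 181 ± 90.1 in E3.5 MUT, 0 to 0.0598 in EPI, 121 ± 34.4 in PrE and 54.6 and 67.5 in E4.5 MUT sums. Havcr1 was at rank 13 for Timd2 (0.89), ahead of BC053393 (0.75), Gm12169 (0.66) and Dppa1 (0.58).

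For Gm12169 the closest were Aqp9 (0.95), Psap (0.95), H2-Q7 (0.94), Sat1 (0.94) and Perp (0.93), and for Dppa1 they were Gm12169 (0.89), Psap (0.89), H2-Q7 (0.87), Aqp9 (0.87) and Pld3 (0.85). For BC053393 they were Rflnb (0.91), Anxa7 (0.91), Gm12169 (0.90), Psap (0.90) and Echdc2 (0.89). Psap, which encodes the lysosomal saposin precursor, was on all 3 lists, at 1500 ± 346 CPM in E3.5 WT/HET, 2373 ± 841 in E3.5 MUT, 196 ± 96.0 in EPI, 219 ± 78.1 in PrE and 5078 and 6113 in E4.5 MUT sums. Aqp9, a channel for glycerol and water, had 0 counts in EPI and PrE sums and 54.0 and 71.5 CPM in E4.5 MUT sums. These r values rest on differences between 5 groups that share embryos and plates, and were used only to name the genes.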

How the data were processed

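The authors aligned paired Smart-seq2 reads with STAR to mm10 and counted read pairs per gene with HTSeq, per the submitters' processing notes and the paper's methods; the deposited values are raw counts per gene for each cell. The strand setting of the counting is not given in the sources used here. Of all pairs, 4.72% lay in no gene and 8.65% in more than 1, and these and pairs aligned more than once stayed out of the totals. The embryo of each cell was read from the paper's supplementary sample table and its group from the labels.

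Counts were summed by embryo, filtered with edgeR's filterByExpr, scaled by TMM and fitted with edgeR's quasi-likelihood test (edgeR 4.0.16, R 4.3.3) in each pair of groups apart, with Benjamini-Hochberg adjustment over all genes tested and a threshold of 0.05; the fit was first tested on simulated data. DESeq2 1.42.0 and limma 3.58.1 were alternatives. Where a group held fewer than 10 counts of a member, the fitted fold change is not given and the ratio of shares of counts is given with an exact Clopper-Pearson interval. Embryos are the replicates, so p-values measure the spread between embryos. Contrasts share their reference embryos. EPI and PrE come from the same 6 embryos, which pairs them. Their deviations correlated weakly within an embryo (r of 0.0217 to 0.0981 over 6005 genes), but the own embryo was the best match in 5 of 6. The main fit of EPI against PrE leaves this pairing out, and the embryo block is the alternative that keeps it.

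The members and gene lists were chosen with earlier results of these data known. Text genes were named by rule: the members, Pou5f1, the 5 genes most like each member, neighbours within 1 Mb that were called or are the 2 nearest on each side, and the called genes of each list with the 3 smallest adjusted p; Med7, Gm12173, Aco1 and Scara5 were added after their values were seen. Alignments used Biopython 1.88 (match 2, mismatch -3, gap open -5, extension -2), and sequences came from GENCODE M21 and RefSeq tables, in which BC053393, Dppa1 and Timd2 matched a promoter entry. Correlations over cells used log2(CPM + 1), those over sums log2 CPM with a prior count of 2. Alternatives were leaving out each embryo, no filter, DESeq2 size factors, DESeq2, equal weight for cells, WT controls only and an embryo block, and for detection other thresholds and thinning cells to 363819 counts. Correlations over deviations from embryo means and the alternatives for Havcr1 were added after seeing the data.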

Additional observations from a re-analysis of the deposited data

Results flagged for a closer look

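In 5 of 19 groups of 4 to 10 sums examined, 1 sum stood apart from the rest by Dixon's criterion. Its cut-off is set for 1 in 20 groups of normally distributed values. The CPM used here were skewed or, in some groups, mostly 0, so that rate does not hold and the 5 flags do not measure an excess. Gm12169 was at 46.4 CPM in E3.5 WT/HET embryo 13. Dppa1 was at 119 CPM in E3.5 HET embryo 15, where 7 of 9 cells had it and 1 cell gave 51.0% of the counts. BC053393 was at 0.239 CPM in the EPI sum of embryo 4 and Dppa1 at 0.651 CPM in the PrE sum of embryo 6, which are 3 and 2 read pairs. Havcr1 was at 44.1 CPM in the EPI sum of embryo 2, from 1 cell.

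The stage difference ran in opposite directions in OCT4-null and control embryos for 3 members. From E3.5 to E4.5, MUT sums were 5.56-fold higher for Gm12169, 6.04-fold for BC053393 and 12-fold for Dppa1, with every E4.5 MUT sum above every E3.5 MUT sum, whereas every EPI and every PrE sum was below every E3.5 WT/HET sum. Leaving out 1 embryo took the log2 fold changes in MUT to 0.98 to 3.11, 2.10 to 3.56 and 2.75 to 4.24. This difference between genotypes was not tested, because the members were chosen on these values, and stage and plate cannot be told apart in either genotype. How many of all genes meet the same rule was not counted, so the 3 members are no measure of an excess. Of all genes, edgeR called 31.9% in EPI and 31.7% in PrE against E3.5 WT/HET, and 6.76% between the MUT stages.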

How the results depend on the processing

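Of 218 member fold changes under the alternatives, 208 were counted as unchanged, which is a weak check of their size. The limit was the larger SD of log2 CPM among the groups compared. In E3.5 MUT against WT/HET it was as wide as 3.19 for BC053393 and 3.25 for Dppa1. There, a move of BC053393 from 1.65 to 0.64 without 1 embryo counted as unchanged. For HET against WT the count says nothing about size, so the ranges are given below. For BC053393, E3.5 MUT against WT/HET was -0.08 with cells weighted equally (1.65 as reported), and E4.5 MUT against PrE was 12.71 with WT controls only (9.53). Between HET and WT, leaving out 1 embryo gave -0.43 to 0.76 for Gm12169, -0.41 to 0.97 for BC053393, -0.36 to 0.15 for Timd2 and 1.15 to 4.45 for Dppa1 at E3.5, and -0.28 to 0.43 for Timd2 in PrE, where equal weight for cells gave -0.43. Havcr1 in PrE against E3.5 WT/HET ranged from -0.46 to 0.08. From E3.5 to E4.5 MUT, leaving out 1 embryo gave 0.98 to 3.11 for Gm12169, 2.10 to 3.56 for BC053393 and 2.75 to 4.24 for Dppa1. No fold change of a member is given from the main fit where a group held fewer than 10 counts, but the alternatives had no such limit. The 12.71 rests on 5 read pairs in the WT PrE sums, so its size is poorly determined.

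Counts of genes called over the whole table moved more. With DESeq2 and with cells weighted equally in limma they were 1607 and 1353 for E3.5 MUT against WT/HET, 1714 and 1479 for E4.5 MUT against EPI, 1224 and 1097 against PrE, 1452 and 1824 for EPI against PrE, and 2636 and 2247 for E4.5 against E3.5 MUT; limma gave 5793 for EPI and 5191 for PrE against E3.5 WT/HET. With WT controls only the first 3 were 435, 48 and 27. Between HET and WT they were 178 and 3 at E3.5, 61 and 2 in EPI (2 also without a filter), and 267 with DESeq2 in PrE. Without 1 embryo they ranged over 482 to 882, 226 to 774, 169 to 534 and, for the MUT stages, 33 to 516, and over 0 to 1 in EPI and 0 to 3 in PrE for HET against WT. With the embryo as a block, which pairs EPI with PrE, 840 genes were called (958 without), and among neighbours and listed genes the block changed the calls of Havcr1, Tfrc, Pcbp1 and Dppa3 and no other.

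All 4 members were found in 8.62% of E3.5 WT/HET cells at 10 CPM (31.03% at 1 count), and in 0% of PrE cells at 5 counts, 1 CPM, 10 CPM or after thinning (3.45%). In EPI, and for Gm12169 and Dppa1 in PrE, 0 to 4 read pairs of a member were found, so differences between embryos there were not detectable.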
